A study of Mus musculus with 9 samples.

Results

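The genes described here are 9 that act in the membrane traffic of cross-presentation, the loading of peptides from engulfed material onto MHC class I: Wdfy4, Sec22b, Rab43, Rab7b, Rab27a, Lnpep, Rab11a, Rab14 and Vamp8. They were taken by name, with earlier results of these data known, and all 9 were among the 14862 genes of the deposited table. RNA was sequenced from 9 libraries of sorted spleen dendritic cells of C57Bl/6 mice aged 8 to 12 weeks. There were 3 libraries each of mcDC, cDC1 and cDC2, which share the strain, the tissue and the age range. cDC1 and cDC2 are the main classes of conventional dendritic cell, while the labels give mcDC as an abbreviation only, and the surface markers of the sort are not given in the sources used here. Nothing in the labels ties a library to its own animal, so the p-values below speak of the spread among libraries, part of which may be technical.

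In cross-presentation, a dendritic cell takes dead cells or particles into phagosomes and endosomes, and the antigen reaches MHC class I either after transfer to the cytosol and digestion by the proteasome or after trimming inside the compartment. Rab proteins are small GTPases that give each compartment its identity and recruit tethers and motors, and SNARE proteins pull 2 membranes together to fuse. cDC1 are known as the dendritic cells that cross-present cell-associated antigen best, and in mice Wdfy4 is needed for this in cDC1.

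Upstream sequences are shown for 3 genes that were higher in cDC1 than in cDC2 (Wdfy4, Rab43 and Rab11a) and for 1 whose levels were nearly level across subsets (Rab14), so that the start regions can be read beside the values. Each is the 250 bases before the first start listed by RefSeq, from assembly GRCm38.p6, written 5′ to 3′ on the gene's own strand. All 4 genes lie on the minus strand, at chr14:33185067-33185316 for Wdfy4, chr6:87812165-87812414 for Rab43, chr9:64737757-64738006 for Rab11a and chr2:35201121-35201370 for Rab14. Capitals mark matches to GGAAGT, the core read by ETS factors such as PU.1, and to GGGCGG, the GC box, on either strand.
Wdfy4: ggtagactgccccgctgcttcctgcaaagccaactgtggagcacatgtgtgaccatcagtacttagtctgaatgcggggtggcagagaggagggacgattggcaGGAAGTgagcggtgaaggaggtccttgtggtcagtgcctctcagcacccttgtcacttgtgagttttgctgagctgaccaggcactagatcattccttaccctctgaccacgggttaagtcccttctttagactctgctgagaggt
Rab43: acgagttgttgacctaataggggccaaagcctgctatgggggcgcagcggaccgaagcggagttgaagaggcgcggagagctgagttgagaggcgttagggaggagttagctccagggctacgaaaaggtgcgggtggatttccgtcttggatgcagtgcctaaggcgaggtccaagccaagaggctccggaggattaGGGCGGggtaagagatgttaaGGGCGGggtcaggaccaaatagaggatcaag
Rab11a: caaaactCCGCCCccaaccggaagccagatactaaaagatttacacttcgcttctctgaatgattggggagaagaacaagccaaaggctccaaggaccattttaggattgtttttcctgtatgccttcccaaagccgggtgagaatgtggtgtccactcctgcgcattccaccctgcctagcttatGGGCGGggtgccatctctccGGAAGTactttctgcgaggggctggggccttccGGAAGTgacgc
Rab14: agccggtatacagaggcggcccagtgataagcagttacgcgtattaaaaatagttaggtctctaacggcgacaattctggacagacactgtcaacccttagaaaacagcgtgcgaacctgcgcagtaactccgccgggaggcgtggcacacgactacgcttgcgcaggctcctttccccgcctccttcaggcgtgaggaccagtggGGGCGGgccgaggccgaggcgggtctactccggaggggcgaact
The Wdfy4 window held 1 GGAAGT, which began at -146 counted from the start, and no GC box. The Rab11a window held GGAAGT at -44 and -11, and GC boxes at -64 and, as the reverse complement, at -243. The Rab43 window held GC boxes at -52 and -31, and the Rab14 window held 1 at -44. None of these matches overlapped another. The motifs were chosen after the sequences were seen, and a match is a description of these letters.

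The windows differed in base composition. The Wdfy4 window had a GC content of 54.4% with 5 CpG dinucleotides, near the medians of 52.4% and 6 over the 32851 windows of the same length. The Rab14 window had 23 CpG at 60.0% GC, the Rab43 window 15 at 58.0% and the Rab11a window 10 at 53.6%. Of the 9 genes, 8 were matched in the RefSeq table, and Rab7b was not. GGAAGT was found in the first window of 2 of these 8 genes and in 19.7% of all windows, and GGGCGG in 6 of the 8 and in 32.7% of all windows. The AP-1 type motif TGANTCA (6.75% of all windows), an IRF type motif of GAAA, any 2 bases and GAAA again (2.98%), the E-box CACGTG (6.02%) and the TATA box TATAAA (12.4%) were also searched on both strands. None of these 4 was in the first window of any of the 8 genes. The window of a further start of Rab27a held CACGTG at -246 and GGAAGT at -53. Rab43 also had further starts, so its first window does not stand for the whole gene. The windows of its starts 2, 3 and 4 had 15, 21 and 2 CpG at 56.4%, 71.2% and 50.8% GC.

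The libraries held 5.14 to 8.22 M reads in genes in mcDC, 9.68 to 11.01 M in cDC1 and 9.19 to 12.43 M in cDC2. RPKM divide a gene's reads by its length in kilobases and by the library's reads in M, so levels of different genes can be set side by side per length. Replicate 3 of mcDC stood apart: it was the shallowest, 12.35% of its genes were at 0 against 2.71% to 6.47% in the other libraries, and genes over 5 kb took 19.59% of its reads against 22.71% to 29.46% elsewhere. The subset labels were checked against 8 cDC1 markers, whose summed level was 433 to 880 RPKM in mcDC, 1681 to 2042 RPKM in cDC1 and 204 to 253 RPKM in cDC2. The 6 cDC2 markers summed to 261 to 471 RPKM in mcDC, 33.8 to 109 RPKM in cDC1 and 569 to 624 RPKM in cDC2. No marker of either list was at 0 in any library. By the sums, the labels cDC1 and cDC2 matched their markers, and mcDC lay between them in both. Single markers differed from this: Batf3 and Irf4 passed in none of the 3 comparisons. The highest mean of Batf3 was in mcDC, at 184 RPKM, as was that of Esam, at 26.5 RPKM. Markers of other cells were also present: 5 NK cell markers summed to 43.2 to 81.9 RPKM in mcDC, 16.7 to 18.2 RPKM in cDC1 and 8.82 to 14.6 RPKM in cDC2, and 7 monocyte and macrophage markers to 325 to 457 RPKM in mcDC, 87.2 to 175 RPKM in cDC1 and 343 to 527 RPKM in cDC2. The NK list had 3 of 5 markers called higher in mcDC than in cDC1 and 4 of 5 than in cDC2, and the macrophage list 6 of 7 and 3 of 7; the part of such cells in the values of the 9 genes was not tested.

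All 9 genes were above 1 RPKM in all 9 libraries and passed the filter for testing. Wdfy4 was the most abundant per length, with a mean over the libraries higher than that of 98.2% of the genes tested, followed by Rab43 at 97.7% and Vamp8 at 97.2%. Rab14 stood at 90.6%, Rab7b at 89.6%, Rab11a at 81.7%, Sec22b at 73.2% and Lnpep at 71.4%. Rab27a was the lowest of the group, above 53.0% of genes. The reads behind a single value ran from 87, for Lnpep in mcDC replicate 3, to 42168, for Wdfy4 in cDC1.

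**Figure D1:**
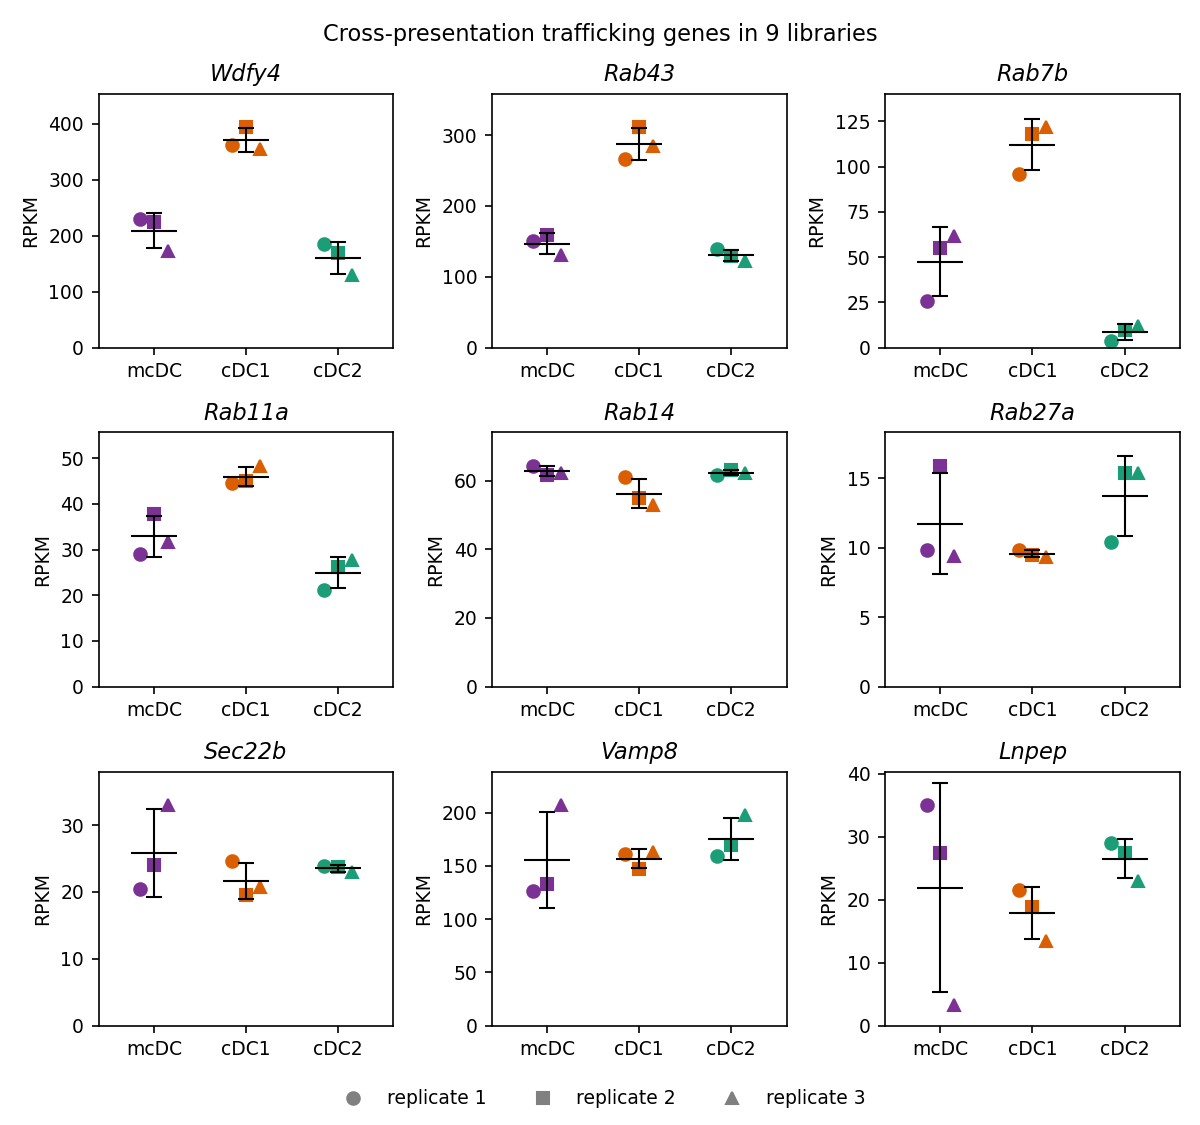
Level of each of the 9 genes in RPKM (vertical axes, each from 0) in mcDC, cDC1 and cDC2; each point is 1 library and each bar the mean of 3. Wdfy4, Rab43, Rab7b and Rab11a stand highest in cDC1, Rab14 lies between 52.9 and 64.3 RPKM in all 9 libraries, and Lnpep in mcDC replicate 3 is at 3.26 RPKM.

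Wdfy4, Rab43, Rab7b and Rab11a were higher in cDC1 than in cDC2, by 13.0 times for Rab7b and by 1.84 to 2.30 times for the other three in mean RPKM. Wdfy4, Rab43 and Rab11a were also lower in mcDC than in cDC1, and Rab7b was higher in mcDC than in cDC2. Sec22b, Vamp8, Rab14, Rab27a and Lnpep passed the test in none of the 3 comparisons. In bulk RNA, fewer cells of a type and less RNA per cell cannot be told apart.

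Wdfy4 (Entrez gene 545030) encodes a large BEACH domain protein that takes part in the handling of cell-associated antigen in mouse cDC1. Its level was 229, 225 and 173 RPKM in the 3 mcDC libraries, 363, 395 and 355 RPKM in cDC1, and 185, 169 and 129 RPKM in cDC2. Every cDC1 library lay above every other library, while the lowest mcDC library lay inside the cDC2 range. Wdfy4 in mcDC was 0.56 times the cDC1 mean, or -0.83 ± 0.16 as a log2 fold change (SE, n = 3 a group), and passed the test (limma, adjusted p = 0.0084). Against cDC2 the log2 fold change in mcDC was 0.38, with a 95% confidence interval of 0.01 to 0.75, and it did not pass the test (limma, adjusted p = 0.29). The cDC1 libraries averaged 371 ± 21.3 RPKM and the cDC2 libraries 161 ± 28.8 RPKM (SD, n = 3 each). In each subset replicate 3 had the lowest Wdfy4 level and also the smallest share of reads in genes over 5 kb, and Wdfy4 is long, at 9.68 kb; the part of gene length in these values was not tested. Lrrc18, which lies within Wdfy4 on the opposite strand, reached at most 1.56 RPKM in mcDC, 3.45 RPKM in cDC1 and 0.759 RPKM in cDC2.

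Rab43 (Entrez gene 69834), a Rab GTPase of the Golgi and phagosome with a known role in cross-presentation by mouse cDC1, was second in level. It had 151, 160 and 130.4 RPKM in mcDC, 267, 312 and 284 RPKM in cDC1, and 139, 129 and 123 RPKM in cDC2. The cDC1 libraries stood apart from all others, and mcDC and cDC2 overlapped. In mcDC Rab43 was lower than in cDC1, with -0.97 ± 0.12 as the log2 fold change (SE; limma, adjusted p = 7e-04). In cDC1 it was higher than in cDC2 by 1.14 ± 0.12 on the log2 scale (SE; limma, adjusted p = 0.00015). Both calls held with any 1 library left out, with adjusted p of at most 0.0061 and 0.0017 in limma. Between mcDC and cDC2 the log2 fold change was 0.17, with a 95% confidence interval of -0.10 to 0.44. The annotation places the gene models Gm45140, Gm44423 and 9930120I10Rik on the same strand over Rab43. Their reads could not be told apart from those of Rab43 here. The same holds for Gm27186 over Rab27a, Gm49784 over Lnpep and Gm47308 over Rab11a.

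Rab7b (Entrez gene 226421), which directs transport from late endosomes to the trans-Golgi network, differed most among the 9 genes. Its level was 25.8, 55.0 and 61.7 RPKM in mcDC, 96.0, 118 and 122 RPKM in cDC1, and 3.84, 9.99 and 12.0 RPKM in cDC2. No library of one subset reached the range of another, with cDC1 highest, mcDC next and cDC2 lowest. The log2 fold change of cDC1 against cDC2 was 3.67 ± 0.40 (SE; limma, adjusted p = 0.00018), and that of mcDC against cDC2 was 2.36 ± 0.40 (SE; limma, adjusted p = 0.012). The mcDC call against cDC2 was lost without mcDC replicate 2 (limma, adjusted p = 0.051) and when mcDC and cDC2 were fitted alone (limma, adjusted p = 0.051).

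Against cDC1, Rab7b in mcDC had a log2 fold change of -1.31 with a 95% confidence interval of -2.20 to -0.42, which missed the threshold (limma, adjusted p = 0.055). It passed in 8 of 19 alternative settings, among them without cDC2 replicate 1 (adjusted p = 0.022) and without mcDC replicate 3 (adjusted p = 0.031), over a range of adjusted p from 0.0027 to 0.16. Rab7b was the most variable of the 4 genes within a subset, with an SD of 40.2% of the mean in mcDC and 49.3% in cDC2. The summed cDC1 markers ran in the same order as Rab7b within mcDC, at 433, 704 and 880 RPKM in replicates 1, 2 and 3, and within cDC2, at 204, 226 and 253 RPKM. Within cDC1 they did not, at 1681, 2042 and 2020 RPKM, since replicate 3 was highest in Rab7b and replicate 2 in the markers. Most of these sums outside cDC1 came from Irf8 and Batf3. Their means were 368 and 184 RPKM in mcDC, and 76.3 and 118 RPKM in cDC2. The sums there thus speak mainly of these 2 genes and little of the other cDC1 markers. The part of the cDC1 markers in the Rab7b values was not tested.

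Rab11a (Entrez gene 53869) marks recycling endosomes, which hold a pool of MHC class I near the cell surface. It had 28.98, 37.9 and 31.7 RPKM in mcDC, 44.5, 45.1 and 48.4 RPKM in cDC1, and 21.1, 26.1 and 27.7 RPKM in cDC2. The 3 subsets did not overlap, in the same order as for Rab7b. In cDC1 Rab11a was higher than in cDC2 by 0.86 ± 0.14 on the log2 scale (SE; limma, adjusted p = 0.0019). In mcDC it was lower than in cDC1, at -0.48 ± 0.14 on the same scale (SE; limma, adjusted p = 0.045). Against cDC2, mcDC stood at 0.38 with a 95% confidence interval of 0.07 to 0.70, which did not pass the test (limma, adjusted p = 0.19).

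The Rab11a difference between mcDC and cDC1 was close to the threshold and was lost in 9 of 19 alternative settings. In limma the adjusted p was 0.086, 0.13 and 0.15 without cDC1 replicate 1, 2 or 3, and 0.090 and 0.058 without mcDC replicate 1 or 3. Leaving out cDC2 replicate 2 or 3, which changes only the shared spread, gave adjusted p of 0.079 and 0.061. The log2 fold change itself stayed between -0.58 and -0.40 with 1 library left out.

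Rab14 (Entrez gene 68365), the Rab of the IRAP endosome, was the steadiest of the 9 genes. It had 64.3, 61.7 and 62.2 RPKM in mcDC, 61.0, 54.8 and 52.9 RPKM in cDC1, and 61.7, 63.0 and 62.2 RPKM in cDC2. The cDC1 libraries were all below those of both other subsets, by a small margin, and mcDC and cDC2 overlapped. The log2 fold change was 0.16 for mcDC against cDC1 (95% confidence interval -0.06 to 0.38), 0.01 for mcDC against cDC2 (-0.21 to 0.23) and -0.15 for cDC1 against cDC2 (-0.36 to 0.07). None passed the test (limma, adjusted p = 0.32, 0.97 and 0.37). Rab11a and Rab14 share recycling routes, and their means stood at 32.9 and 62.8 RPKM in mcDC, 46.0 and 56.2 RPKM in cDC1, and 24.97 and 62.3 RPKM in cDC2.

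Rab27a (Entrez gene 11891), which brings vesicles with the NOX2 oxidase to the phagosome in mouse dendritic cells, was the least abundant. Its level was 9.88, 15.9 and 9.42 RPKM in mcDC, 9.84, 9.49 and 9.35 RPKM in cDC1, and 10.4, 15.4 and 15.4 RPKM in cDC2. All cDC1 libraries lay below all cDC2 libraries, and 1 mcDC library lay with the higher cDC2 libraries. The log2 fold change of cDC1 against cDC2 was -0.46, with a 95% confidence interval of -0.94 to 0.02 (limma, adjusted p = 0.19). In cDC2 the 7 neutrophil markers summed to 140, 811 and 1359 RPKM in replicates 1, 2 and 3, against 10.8 to 37.8 RPKM in mcDC and 11.0 to 33.4 RPKM in cDC1. The cDC2 library with the lowest Rab27a was thus the one with the fewest neutrophil transcripts, and the part of these transcripts was not tested. The mcDC library at 15.9 RPKM had a neutrophil sum of 24.4 RPKM, with Mmp8, Camp and Ltf at 0.

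The SNAREs Sec22b and Vamp8 did not pass the test between any subsets. Sec22b (Entrez gene 20333), an ER and Golgi SNARE that carries ER proteins towards phagosomes, had 20.4, 24.1 and 33.1 RPKM in mcDC, 24.6, 19.5 and 20.7 RPKM in cDC1, and 23.9, 23.8 and 22.9 RPKM in cDC2. Vamp8 (Entrez gene 22320), a SNARE of endosome and phagosome fusion, had 126, 133 and 208 RPKM in mcDC, 161, 147 and 163 RPKM in cDC1, and 159, 169.6 and 198 RPKM in cDC2. For both genes mcDC overlapped both other subsets, and its replicate 3 was the highest of the 9 libraries. The log2 fold changes of Sec22b were 0.22 (95% confidence interval -0.16 to 0.61), 0.10 (-0.28 to 0.49) and -0.12 (-0.51 to 0.26) for mcDC against cDC1, mcDC against cDC2 and cDC1 against cDC2. Those of Vamp8 were -0.05 (-0.46 to 0.37), -0.20 (-0.62 to 0.21) and -0.16 (-0.57 to 0.26) in the same order. The intervals of both genes end short of a 2-fold difference in either direction. Vamp8 is the shortest of the 9 genes, at 0.79 kb, and genes under 1 kb took 11.71% of the reads of mcDC replicate 3, against 6.26% and 8.14% in the other mcDC libraries.

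Lnpep (Entrez gene 240028) encodes IRAP, an aminopeptidase that trims peptides inside endosomes. Its level was 35.1, 27.4 and 3.26 RPKM in mcDC, 21.5, 18.9 and 13.4 RPKM in cDC1, and 29.1, 27.5 and 23.0 RPKM in cDC2. The mcDC libraries held both the highest and the lowest value of all 9, and every cDC1 library lay below every cDC2 library. With all libraries the log2 fold change was -0.19 for mcDC against cDC1 (95% confidence interval -1.66 to 1.29), -0.74 for mcDC against cDC2 (-2.22 to 0.73) and -0.56 for cDC1 against cDC2 (-2.04 to 0.92). None passed the test (limma, adjusted p = 0.89, 0.62 and 0.66).

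The Lnpep result rested on mcDC replicate 3. Without that library, mcDC was higher than cDC1 by 0.78 on the log2 scale and passed the test (limma, adjusted p = 0.024). In the same fit mcDC against cDC2 stood at 0.23 (limma, adjusted p = 0.59). There cDC1 against cDC2 stayed at -0.56 and also passed (limma, adjusted p = 0.045), since only the shared spread changed. With cDC1 and cDC2 fitted alone, Lnpep passed between them as well (limma, adjusted p = 0.041). It passed in cDC1 against cDC2 in 3 of 19 alternative settings. In each subset the Lnpep level followed the share of reads in genes over 5 kb, which was 29.46%, 26.39% and 19.59% in mcDC replicates 1, 2 and 3, 26.33%, 25.24% and 22.71% in cDC1, and 26.59%, 26.23% and 23.03% in cDC2. Against the mean of the other mcDC libraries, Lnpep in replicate 3 differed by -2.92 on the log2 scale, while the median was -0.27 over the 2210 genes tested of 4 to 6 kb, which include Lnpep at 5.18 kb. Only 2 of these 2210 genes, Lnpep among them, were as low. On the same scale Rab43, at 4.88 kb, differed by -0.25, Wdfy4 by -0.39 and Rab7b by 0.60. What set Lnpep apart in this library was not tested.

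**Figure D2:**
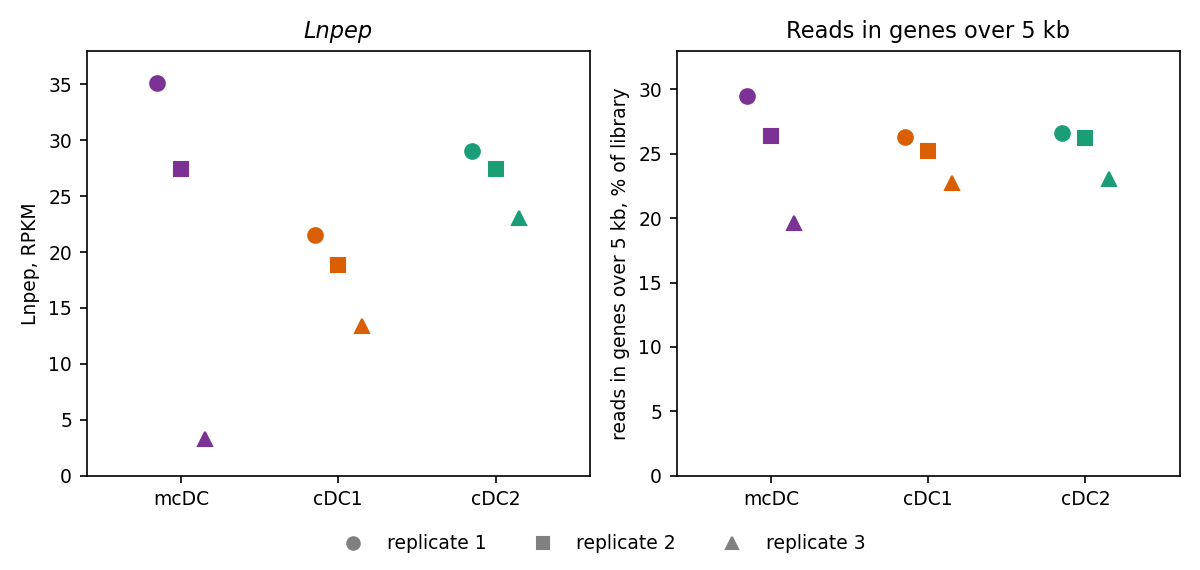
Left, Lnpep level in RPKM; right, the share of each library's reads in genes over 5 kb, in percent, for mcDC, cDC1 and cDC2. Each symbol is 1 library (circle, replicate 1; square, replicate 2; triangle, replicate 3); within each subset replicate 3 is lowest in both panels, and mcDC replicate 3 is at 3.26 RPKM and 19.59%.

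Counted over the group, 3 of the 9 genes were lower and 0 higher in mcDC than in cDC1, where 15.4% of the 11971 genes tested were called, 5.88% lower and 9.53% higher. In mcDC against cDC2, 1 of 9 was higher and 0 lower, against 3.66% of all genes called, 2.06% higher and 1.6% lower. In cDC1 against cDC2, 4 of 9 were higher and 0 lower, against 19.6% of all genes called, 8.85% higher and 10.7% lower. The 3 comparisons share their libraries in pairs, so these counts are not independent. The median log2 fold change of the 9 genes was -0.19, 0.10 and -0.12 in the 3 comparisons, and that of all genes tested was 0.09, 0.06 and -0.02; in cDC1 against cDC2 the median of the 9 was below 0 while all 4 calls were above it. Without overlap between libraries, 1 gene was higher and 4 were lower in mcDC than in cDC1, against 19.5% and 11.0% of all genes, 30.5% in all. In mcDC against cDC2, 2 were higher and 0 lower, against 13.9% and 7.7% (21.6% in all), and in cDC1 against cDC2, 4 were higher and 3 lower, against 21.5% and 24.6% (46.1% in all). Median-of-ratios scaling moved the median of all genes in mcDC against cDC1 from 0.09 to -0.03, and the share of calls that were higher was 61.8% as deposited and 46.5% with that scaling.

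**Figure D3:**
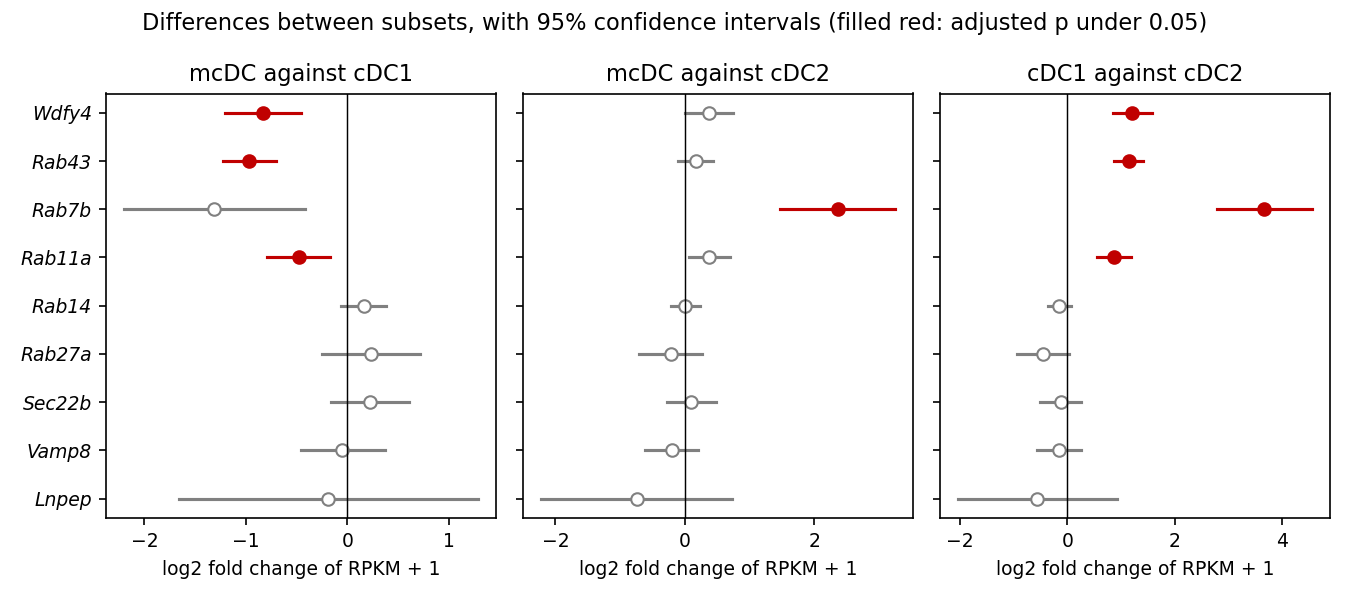
Log2 fold change of RPKM + 1 (horizontal axes, scaled separately) of the 9 genes in mcDC against cDC1, mcDC against cDC2 and cDC1 against cDC2, with 95% confidence intervals from limma; filled red points have adjusted p under 0.05. Positive values are higher in the subset named first, and the widest intervals are those of Lnpep and Rab7b.

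The other Rab GTPases of the endosome, phagosome and recycling routes were set beside the Rab members. Their list was chosen with earlier results of these data known, so it is not an independent background. Over all genes tested, 8.85% were higher and 10.7% lower in cDC1 than in cDC2, and 9.53% and 5.88% in mcDC than in cDC1. Of 24 further Rab genes tested, 5 were higher and 0 lower in cDC1 than in cDC2. Their median log2 fold change was 0.24, against -0.02 over all genes. The 5 higher were Rab32, Rab13, Rab39, Rab10 and Rab8b, with log2 fold changes of 1.34, 1.33, 1.12, 0.60 and 0.49, all smaller than that of Rab7b. Rab13 was under 1 RPKM in every mcDC and cDC2 library and passed the filter through cDC1 alone, where it is high, so its calls follow from the filter and the other 4 carry the count. The same 5 genes were lower in mcDC than in cDC1, where 0 were higher, and 0 passed in mcDC against cDC2 in limma or in voom, with 2 higher and 0 lower at an unadjusted p under 0.05. Over all 11971 genes, 3474 were under that unadjusted threshold in mcDC against cDC1, 2003 in mcDC against cDC2 and 3570 in cDC1 against cDC2. Rab32, which acts in lysosome-related organelles, averaged 56.7 ± 12.9 RPKM in mcDC, 110.4 ± 14.7 RPKM in cDC1 and 42.9 ± 5.62 RPKM in cDC2 (SD, n = 3 each). The count of 5 in cDC1 against cDC2 became 3 without cDC1 replicate 1 or 2, or without any 1 of the cDC2 replicates. In mcDC against cDC1 it became 2 without cDC1 replicate 2 and 3 without cDC1 replicate 3.

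Among 30 further SNAREs and their regulators, 4 were higher and 2 lower in cDC1 than in cDC2, with a median of 0.04. Over all genes tested, 8.85% were higher and 10.7% lower, 19.6% in all, with a median of -0.02. Syntaxin 3 (Stx3), a plasma membrane SNARE, averaged 3.72 ± 0.391 RPKM in mcDC, 6.30 ± 0.562 RPKM in cDC1 and 3.33 ± 0.118 RPKM in cDC2 (SD, n = 3 each). Its log2 fold change was 0.75 in cDC1 against cDC2 (limma, adjusted p = 0.0064), against -0.12 for Sec22b and -0.16 for Vamp8. The 2 that were lower, Vti1a and Vamp4, are SNAREs of the trans-Golgi network and early endosome; this count became 0 without cDC1 replicate 2 or without cDC2 replicate 2 or 3, 1 without cDC1 replicate 3 or cDC2 replicate 1, and 5 without mcDC replicate 3. In mcDC against cDC1, 1 was higher and 4 lower, against 9.53% and 5.88% of all genes tested. The 4 became 0 without cDC1 replicate 1 or 2 and 2 without cDC1 replicate 3. The 1 that was higher, Vti1a (limma, adjusted p = 0.035), kept its call in 1 of the 9 fits with a library left out, that without mcDC replicate 3, and its adjusted p was 0.058 to 0.14 in the others. In mcDC against cDC2, 0 were called in limma or in voom, and 1 was higher and 2 were lower at an unadjusted p under 0.05.

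Of the 7 BEACH domain relatives of Wdfy4 tested, 0 passed in any comparison in limma. At an unadjusted p under 0.05, 1 was lower in mcDC than in cDC1, 0 differed between mcDC and cDC2, and 2 were higher and 1 lower in cDC1 than in cDC2; voom called 1, 0 and 1 in these comparisons. Without mcDC replicate 1, 1 was lower in mcDC than in cDC1 and 1 higher in cDC1 than in cDC2, and without mcDC replicate 3, 2 were higher in mcDC than in cDC1, and 3 were higher and 1 lower in cDC1 than in cDC2. Hsp90ab1 and Ewsr1, reported binding partners of WDFY4, passed in none either, in limma or in voom; at an unadjusted p under 0.05, Ewsr1 alone counted, as higher in mcDC than in cDC1. Hsp90ab1, a cytosolic chaperone, averaged 701 ± 89.9 RPKM in mcDC, 781 ± 27.8 RPKM in cDC1 and 654 ± 13.7 RPKM in cDC2 (SD, n = 3 each), with overlap between mcDC and both other subsets. Its log2 fold change in cDC1 against cDC2 was 0.26 ± 0.14 (SE; limma, adjusted p = 0.26).

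Genes of export from the ER and transfer to the cytosol, the step that Sec22b is held to feed, were also compared. In cDC1 against cDC2, 5 of 16 were higher and 0 lower, where 8.85% of all genes tested were higher and 10.7% lower. The median log2 fold change was 0.36, against -0.02 over all genes. Derl3 changed most, at 1.12 (limma, adjusted p = 0.036), a call lost in 5 of 9 fits with a library left out. Its mean was 4.46 RPKM in mcDC, 2.34 RPKM in cDC1 and 0.514 RPKM in cDC2. In mcDC against cDC2, 1 of 16 was higher and 0 lower, against 2.06% and 1.6% of all genes. That gene was Derl3, at 1.86 (limma, adjusted p = 0.013), a call lost in 2 of 9 such fits. Hsp90b1, an ER chaperone, averaged 238 ± 64.3 RPKM in mcDC, 349.9 ± 35.997 RPKM in cDC1 and 174 ± 18.8 RPKM in cDC2 (SD, n = 3 each). Its log2 fold change was 1.01 in cDC1 against cDC2 (limma, adjusted p = 0.0066). Vcp, the ATPase that extracts proteins from the ER membrane, was higher in cDC1 than in cDC2 by 0.68 (limma, adjusted p = 0.0041) and lower in mcDC than in cDC1, at -0.51 (limma, adjusted p = 0.022). The Vcp call in mcDC was lost without cDC1 replicate 2 (adjusted p = 0.097) or 3 (adjusted p = 0.087). The count of 5 became 3 without cDC1 replicate 2 or 3 or cDC2 replicate 1 or 2, and 9 without mcDC replicate 3. Sec61a1, the pore subunit of the translocon, was higher in cDC1 than in cDC2 by 0.46 (limma, adjusted p = 0.028).

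**Figure D4:**
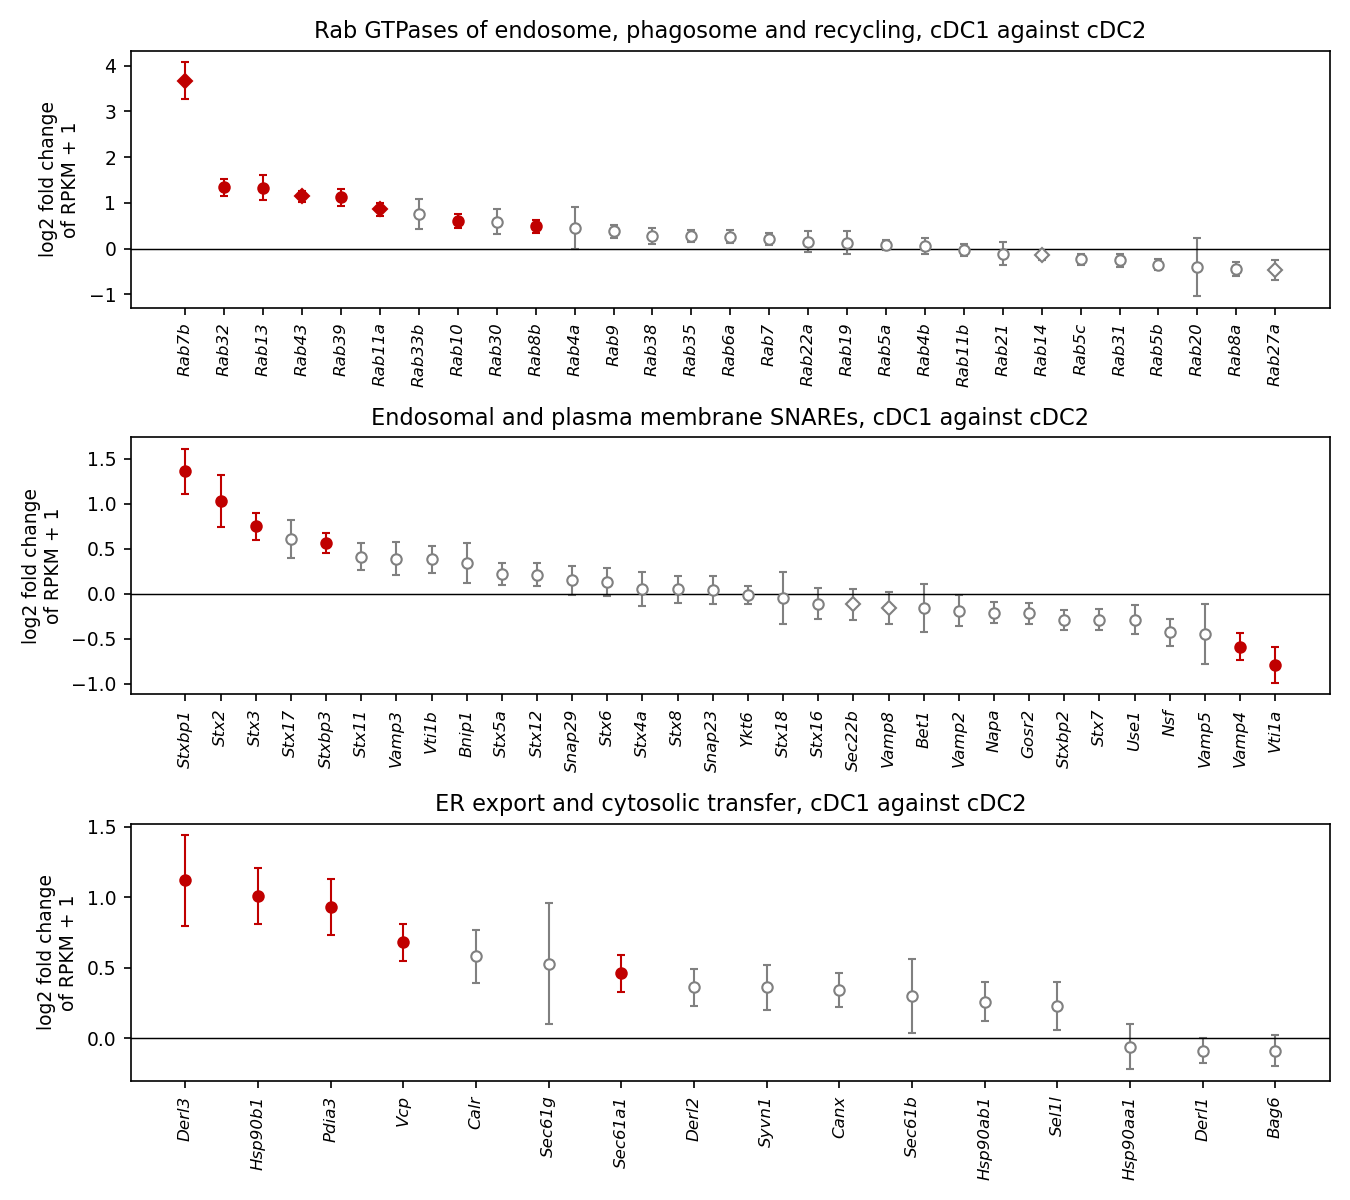
Log2 fold change of RPKM + 1 in cDC1 against cDC2 (vertical axes) of the genes tested in 3 lists: Rab GTPases, SNAREs, and ER export with cytosolic transfer; diamonds are the genes of the group of 9, bars are 1 SE and filled red points have adjusted p under 0.05. Rab7b lies apart from the other Rab genes at 3.67, while Sec22b and Vamp8 lie at -0.12 and -0.16.

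The genes whose levels ran most like those of the 4 differing genes were named by Pearson correlation of log2(RPKM + 1) over the 9 libraries, among 8358 genes with a mean of at least 5 RPKM. The libraries fall into subsets, so r describes the order of the subsets as well as the spread within them. Rab7b was most like Irf8, the transcription factor on which cDC1 depend (r = 0.996), at 206 to 493 RPKM in mcDC, 620.4 to 785 RPKM in cDC1 and 50.9 to 94.7 RPKM in cDC2, followed by Gcsam (0.994) and Dennd2d (0.987). Rab43 was most like Mprip (0.996), Galnt7 (0.992) and Lrrc3 (0.992). Wdfy4 was most like Mtmr14 (0.989), Zc3h12c (0.986) and Dnm1l (0.985). Rab11a was most like Mpeg1, a pore-forming protein of phagosomes (0.988), with 293 to 546 RPKM in mcDC, 1077 to 1275 RPKM in cDC1 and 163 to 297 RPKM in cDC2, followed by Rnf144b (0.987) and Sec24d (0.981).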

How the data were processed

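Total RNA was extracted by the mir-VANA protocol and libraries were made with a directional NEBNext kit, per the labels' protocols. The authors deposited RPKM values per gene in 1 table of 9 libraries and in 8 single-library files, which held the same values as their columns; there were 0 columns of other samples. The unit was read from the steps between the values, which gave whole reads for 100% of genes with reads (within 0.01 reads). Build mm8 comes from the submitters' processing notes; the aligner, the counting tool, its use of strand and the annotation are not given in the sources used here. RPKM fixes the total of each library, so a library rich in a few transcripts lowers the rest, and it does not correct for a loss of long genes.

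Subsets were compared by limma (3.58.1, under R 4.3.3) using log2(RPKM + 1), a scale that understates fold changes of low genes, in 1 fit of the 9 libraries with a trended prior (6 residual degrees of freedom, median prior 3.4). The test took in 11971 genes that exceeded 1 RPKM in 2 or more libraries, p-values were adjusted by Benjamini and Hochberg over all of them within each comparison, and the threshold was 0.05. Fold changes are the subset named first minus the second. Tables and figures used Python 3.11.15, numpy 2.4.6, pandas 2.3.3 and matplotlib 3.10.9. The fit was tested on simulated data. A chi-square of the recovered reads per degree of freedom was 10.36 to 65.75 between libraries of a subset. By this no library was another sequenced again, but libraries of the same cells or animal could not be told from others. Coordinates of start regions are from RefSeq on GRCm38.p6, and overlapping genes from GENCODE. Replicates were numbered by the order of the labels.

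The 9 genes and the gene lists were chosen with earlier results of these data known. From each list the text may name up to 4 called genes with the largest change in a comparison and up to 2 with the highest RPKM. Lists of 10 or fewer may be named in full, and for each called member the 3 genes of most similar pattern. Rab10, Rab8b, Sec61a1, Vti1a and Vamp4 are named to complete a count of 5 or fewer, and Sytl2 for its path through the filter. Cyba, Rac2, Igtp, Tfeb, Lgmn and Syk are named to complete the count of 8 phagosomal factors. Alternatives were other scalings, pseudocount 0.1, no filter, a filter of 5 RPKM, no trend, the groups compared alone, a replicate block, voom on the recovered reads, and each library left out.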

Additional observations from a re-analysis of the deposited data

How the results depend on the processing

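Of 513 values of the 9 genes under 19 alternative settings, 478 kept their direction and their side of the threshold, 11 lost the call, 11 gained one and 13 turned, of which 2, both Lnpep in mcDC against cDC1, also gained a call. The calls of Wdfy4, Rab43, Rab7b and Rab11a in cDC1 against cDC2, and of Wdfy4 and Rab43 in mcDC against cDC1, held in all 19. The log2 values that turned were uncalled in the fit of all libraries. In mcDC against cDC1, with 1 library left out, Lnpep ran from -0.758 to 0.784 and Vamp8 from -0.271 to 0.086, and was above 0 without mcDC replicate 1 or 2. In mcDC against cDC2, Lnpep ran from -1.316 to 0.225, Sec22b from -0.084 to 0.251 and Rab14 from -0.007 to 0.022. There median-of-ratios scaling gave -0.007 for Sec22b and -0.101 for Rab14, and quantile normalization -0.017 for Rab14. The cause was not tested.

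With 1 library left out, the genes called over the whole table ranged from 951 to 2601 in mcDC against cDC1, from 158 to 896 in mcDC against cDC2 and from 1547 to 3467 in cDC1 against cDC2, and the members called from 2 to 4, from 0 to 1 and from 4 to 5. With the groups compared fitted alone, the 3 counts over the table were 1096, 251 and 3731, and 0 of the 9 genes were called in mcDC against cDC2.

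Library titles carry consecutive numbers, and each run of 3 numbers covers every subset once; no label says what such a run means. Deviations from the subset means correlated at 0.071 to 0.553 in the 9 pairs of the same run and at -0.548 to 0.014 in other pairs, and 9 of 9 libraries correlated best with their own run, a hint from the data and not from the design. Deviations within a subset cancel for each gene, so a positive correlation in a pair forces lower ones in others. The gap between the ranges is thus partly fixed by the centring. With the run as a replicate block the count in mcDC against cDC2 over the table was 773. Under that block Rab7b passed in mcDC against cDC1 (limma, adjusted p = 0.0027). A block with mcDC replicate 3 left out, chosen after seeing the data, gave counts over the table of 3003, 718 and 4274, and 5 of the 9 genes in mcDC against cDC1. Under it Lnpep stood at 0.644 in mcDC against cDC1 and at 0.085 in mcDC against cDC2, Sec22b at -0.106 and Rab14 at -0.005 in mcDC against cDC2. Having 3 libraries a subset limits every test.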

Other observations

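Of 5 partners and effectors of RAB27A tested, 1 was higher in mcDC than in cDC1, 1 higher in mcDC than in cDC2, and 0 passed in cDC1 against cDC2 in limma, with 0 higher and 1 lower at an unadjusted p under 0.05. Calls by voom differed: 2 were higher in mcDC than in cDC1, 0 in mcDC than in cDC2, and 1 was lower in cDC1 than in cDC2. Each of these counts ran from 0 to 1 with 1 library left out. Sytl2, among the 5, was above 1 RPKM in mcDC alone and passed the filter through that subset. A call of Sytl2 as higher in mcDC would follow from the filter. Over all genes tested, limma called 9.53% higher and 5.88% lower in mcDC than in cDC1. In mcDC against cDC2 it called 2.06% and 1.6%, and in cDC1 against cDC2 8.85% and 10.7%. Of 13 effectors of RAB11A and RAB14, 2 were higher and 1 lower in mcDC than in cDC1, but 1 of the 2, Myo5b, was above 1 RPKM in mcDC alone and passed the filter through the subset where it is high, so its call follows from the filter. Of the 13, 1 was higher and 1 lower in cDC1 than in cDC2. Rab11fip4, an adaptor that binds RAB11, averaged 12.5 ± 2.70 RPKM in mcDC, 25.1 ± 1.61 RPKM in cDC1 and 14.8 ± 3.05 RPKM in cDC2 (SD, n = 3 each). It was lower in mcDC than in cDC1, at -0.97 on the log2 scale (limma, adjusted p = 0.0072), and this call held with each library left out in turn. With 1 library left out, the calls in mcDC against cDC1 were 0 to 3 higher and 1 lower, and those in cDC1 against cDC2 were 0 to 2 in each direction.

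Of 6 other aminopeptidases and trimming enzymes beside Lnpep, Lta4h, an epoxide hydrolase with aminopeptidase activity, averaged 88.4 ± 5.21 RPKM in mcDC, 46.4 ± 7.72 RPKM in cDC1 and 102 ± 3.66 RPKM in cDC2 (SD, n = 3 each). It was higher in mcDC than in cDC1 by 0.93 (limma, adjusted p = 0.0012) and lower in cDC1 than in cDC2, at -1.14 (limma, adjusted p = 0.00021). Anpep, a surface aminopeptidase, was higher in cDC1 than in cDC2 by 0.88 (limma, adjusted p = 0.0074), at 191 ± 18.9 RPKM in cDC1 and 104 ± 18.3 RPKM in cDC2 (SD, n = 3 each).

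Over 15 phagosomal factors of cross-presentation, the median log2 fold change in cDC1 against cDC2 was -0.62, against -0.02 over all genes. In this comparison 3 of the 15 were higher and 8 lower, against 8.85% and 10.7% of all genes tested. The 8 lower were Cybb, Cyba, Rac2, Igtp, Tfeb, Lgmn, Ifi30 and Syk. The list was not divided by whether a gene favours or opposes cross-presentation, so these counts do not give a direction for the process. Those higher were Clec9a, a receptor for dead cells that is also a cDC1 marker, at 325 ± 24.3 RPKM in cDC1 and 20.5 ± 3.67 RPKM in cDC2, Apol7c, at 439 ± 117 RPKM in cDC1 and 56.9 ± 22.3 RPKM in cDC2, and Mpeg1. Cybb, the catalytic subunit of the NOX2 oxidase that Rab27a vesicles carry, was lower in cDC1 than in cDC2, at -2.69 (limma, adjusted p = 0.0032), with 62.7, 17.8 and 16.9 RPKM in cDC1 and 172, 186 and 178 RPKM in cDC2. Replicate 1 set the cDC1 mean apart, and without it the log2 fold change was -3.29 (limma, adjusted p = 0.00027). The cDC2 markers summed to 109, 33.8 and 36.8 RPKM in cDC1 replicates 1, 2 and 3. The monocyte and macrophage markers summed to 175, 87.2 and 124 RPKM in the same order. The part of such cells in the Cybb values was not tested. In mcDC, 6 of the 15 were higher and 3 lower than in cDC1, against 9.53% and 5.88% of all genes. The 6 became 3 without cDC1 replicate 2. In mcDC against cDC2, 2 were higher and 0 lower, against 2.06% and 1.6% of all genes. These 2 were Clec9a at 1.51 (limma, adjusted p = 0.0038) and Mrc1, the mannose receptor, at 1.32 (limma, adjusted p = 0.04). The Mrc1 call was lost without cDC1 replicate 1, any cDC2 replicate, or mcDC replicate 1 or 2, at adjusted p of 0.055 to 0.14. Mertk, Cd5l and Vcam1, of the 7 monocyte and macrophage markers, were also higher in mcDC than in cDC1 and in cDC2. Their log2 fold changes against cDC1 and cDC2 were 2.6 and 3.07 for Mertk, 2.43 and 2.74 for Cd5l, and 1.24 and 2.86 for Vcam1. The other 4 did not pass against cDC2. Of these, Csf1r (-1.21) and Adgre1 (-0.82) were lower in mcDC without overlap, and Ly6c2 (0.83) and Ccr2 (0.12) overlapped. Macrophages express Mrc1, and their part in its value was not tested. In cDC1 against cDC2 the count of 8 became 5 without cDC1 replicate 2 or without cDC2 replicate 2 or 3. The 7 neutrophil markers summed to 11.0 to 33.4 RPKM in cDC1 and 140 to 1359 RPKM in cDC2, and neutrophils express Cybb; their part in this value was not tested.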
